A study of Mus musculus with 9 samples.

Results

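Chromatin accessibility with an shRNA against Smndc1 was set directly against accessibility with an shRNA against Atrx, using 6 of the 9 libraries of the series and leaving the empty vector libraries out of the test. The comparison was defined by the treatment labels and by no measured value. The cells were alphaTC1, a mouse pancreatic alpha cell line, and the assay was ATAC-seq, in which a transposase cuts open chromatin and the cut fragments are sequenced. Groups of 3 libraries each were made 5 days after transduction with Smndc1 shRNA, Atrx shRNA or empty vector, so every group carried a transduced vector. The labels call the 3 libraries of a group individual biological replicates and do not say how many hairpins were used per gene or whether clones were picked. Where replicates share a culture, the p-values measure the spread between libraries only.

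Smndc1 encodes a Tudor domain protein of the U2 spliceosome, which binds methylated arginines on its partners. Atrx is a chromatin remodeler of the SWI/SNF family that works with the chaperone Daxx to place the histone variant H3.3 at repeats, telomeres and heterochromatin. Alpha cells make glucagon from the Gcg gene under factors such as Pax6 and Foxa2. A direct comparison asks where open chromatin differs between loss of a splicing factor and loss of a remodeler in cells that went through the same transduction. Since an shRNA removes RNA and leaves the gene in place, open chromatin at the targeted genes cannot show how far either knockdown went.

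Library totals over the 80827 deposited regions ran from 5.29 to 6.84 M counts in the 6 libraries, with means of 6.15 ± 0.656 M for Smndc1 shRNA and 5.92 ± 0.815 M for Atrx shRNA (SD, n = 3 each; exact permutation p = 0.9, two-sided, where 3 against 3 cannot go below 0.1). The strongest 10% of regions held between 38.6% and 48.8% of the counts in a library. This contrast averaged 43.1 ± 4.52% with Smndc1 shRNA and 43.9 ± 5.12% with Atrx shRNA (SD, n = 3 each; exact permutation p = 0.7, two-sided), and it was lowest in replicate 3 of both groups. Because the libraries differ in contrast within groups, counts are given from a fit with TMM library factors and from a fit with trended offsets, a curve that evens out each library's contrast before testing. Open chromatin at the starts or ends of alpha cell markers was found for 6 of 9 genes, among them Pcsk2 at 65.8 CPM (counts scaled to library size in M, mean of 9 libraries) and Irx2 at 60.9 CPM. Their summed level ran from 255 to 364 CPM with Smndc1 shRNA and from 246 to 402 CPM with Atrx shRNA. None of 7 fibroblast and none of 4 delta or other islet markers had such a region, and the endothelial list had 1 of 5, summing to 1.52 to 3.56 CPM and 2.10 to 4.21 CPM. The immune list had 2 of 7, Cd68 and Spi1, summing to 34.4 to 40.8 CPM with Smndc1 shRNA and 27.6 to 37.6 CPM with Atrx shRNA. The exocrine list had 1 of 5 (Cela1), and the beta cell list had 2 of 7 (Mafa and Nkx6-1).

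Few regions separated the groups, and with TMM factors and with trended offsets most of those were less open with Smndc1 shRNA than with Atrx shRNA. Of 78538 regions tested, 66 passed an adjusted p of 0.05 (0.084% of those tested). Accessibility was higher with Smndc1 shRNA at 19 of them (0.0242%) and lower at 47 (0.0598%), so 28.8% were higher (95% exact Clopper-Pearson interval 18.3% to 41.3%, counting error only). The interval treats the regions as independent, which regions called in the same 6 libraries need not be, and leaves out the spread between libraries. In 65 of the 66 the 3 libraries of each group did not overlap, which a call with 3 against 3 libraries largely requires. It is therefore no separate support for the calls. The exception lies inside Col4a6, a basement membrane collagen gene. With trended offsets 208 regions passed (0.265%), 71 higher (0.0904%) and 137 lower (0.174%), and these include all 66. The majority was not kept in every setting: 66.7% were higher at an adjusted p under 0.01 (6 regions), 50% with DESeq2 (2 regions) and 53.8% with trended offsets without Atrx shRNA replicate 2 (13 regions). The number of calls depended strongly on single libraries of both groups. Without Atrx shRNA replicates 1, 2 and 3 in turn, 4, 1 and 144 regions passed. Without Smndc1 shRNA replicates 1, 2 and 3 in turn, 8, 35 and 37 passed. With trended offsets the same omissions left 25, 13 and 178 (Atrx shRNA) and 22, 195 and 274 (Smndc1 shRNA). DESeq2 called 2 regions, Dppa2 and Dbnl. An unadjusted p under 0.05 was found at 2862 regions with DESeq2 and at 4283 (5.45% of those tested) with edgeR. Where nothing differs, a share of 0.05 of the tested regions would fall there.

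**Figure D1:**
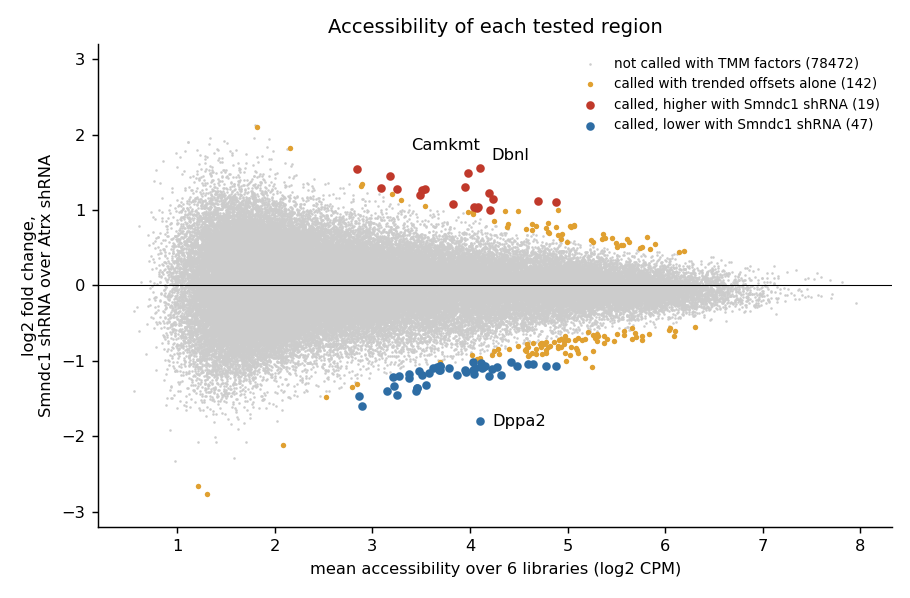
Each tested region's log2 fold change of Smndc1 shRNA over Atrx shRNA (vertical axis) against its mean log2 CPM over the 6 libraries (horizontal axis), with the 19 regions called higher in red, the 47 called lower in blue and those called with trended offsets alone in orange. The regions near Dppa2 (-1.79) and inside Dbnl (1.56) and Camkmt (1.49) are labelled, and the cloud of other regions narrows as the level rises.

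The region that stood apart most clearly lies between genes, 48.46 kb from Dppa2, a gene of pluripotent and germline cells. At chr16:48367969-48368656 (mm10, as are all coordinates here) its level was 7.94, 6.78 and 7.78 CPM in the Smndc1 shRNA libraries and 26.2, 24.4 and 27.4 CPM in the Atrx shRNA libraries. All 3 Smndc1 shRNA libraries thus lay below all 3 Atrx shRNA libraries, with a wide gap between the groups. The level was 3.47-fold lower with Smndc1 shRNA (log2 fold change -1.79 ± 0.25 SE, adjusted p = 3.09e-07). It is the only one of the 66 regions that passed with each of the 6 libraries left out in turn. Empty vector libraries stood between the groups at 11.98, 18.02 and 13.3 CPM. Against empty vector in the fit of all 9 libraries, the log2 fold change was -0.95 with Smndc1 shRNA (adjusted p = 0.0747) and 0.84 with Atrx shRNA (adjusted p = 0.311), and with trended offsets both passed (adjusted p = 0.0255 and 0.0165).

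Around this region, 20 regions were tested within 200 kb on either side, and 7 of them had a positive fold change. An unadjusted p under 0.05 was found for 4, all lower with Smndc1 shRNA, and 1 of these, the region itself, was called. The nearest of the other 3 lies at an offset of -41.2 kb, on the side of Dppa2 (-1.08 ± 0.37, adjusted p = 0.448). The remaining pair lies inside Morc1, a germline ATPase that acts in transposon silencing (-0.74 ± 0.29 and -0.79 ± 0.37, adjusted p = 0.655 and 0.858).

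The highest fold change among the 66 was inside Dbnl, the gene of an adaptor that links actin to endocytosis. At chr11:5792461-5792961 its level was 25.4, 21.5 and 28.1 CPM with Smndc1 shRNA and 9.96, 6.87 and 8.43 CPM with Atrx shRNA. The groups did not overlap, and the level was 2.97-fold higher (1.56 ± 0.24, adjusted p = 3.28e-05). Empty vector libraries had 6.21, 7.52 and 8.28 CPM, close to the Atrx shRNA libraries. The log2 fold change against empty vector was 1.77 with Smndc1 shRNA (adjusted p = 8.87e-06) and 0.20 with Atrx shRNA (adjusted p = 0.978). Within 200 kb, 1 of 42 tested regions passed the test and no other had an unadjusted p under 0.05; the nearest neighbour, the promoter region of Dbnl at an offset of -4.14 kb, had 0.18 ± 0.28.

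A region inside Camkmt, which encodes the methyltransferase that modifies calmodulin, was also more open with Smndc1 shRNA. At chr17:85180451-85181119 the Smndc1 shRNA libraries had 22.1, 28.5 and 17.6 CPM and the Atrx shRNA libraries 9.32, 6.49 and 8.26 CPM. These groups did not overlap either, with a 2.83-fold difference (1.49 ± 0.25, adjusted p = 0.00015; DESeq2 adjusted p = 0.061). Here the empty vector libraries, at 17.4, 17.2 and 14.4 CPM, were nearer to Smndc1 shRNA. Against them the log2 fold change was 0.47 with Smndc1 shRNA (adjusted p = 0.581) and -1.02 with Atrx shRNA (adjusted p = 0.221, and 0.025 with trended offsets). In the 200 kb on either side, 1 of 26 tested regions passed. Dbnl and Camkmt each passed in 5 of the 6 leave-one-out fits and did not pass without Atrx shRNA replicate 2 (adjusted p = 0.124 for both).

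Of the 7 regions with the highest fold change outside promoters and gene ends, the other 5 each passed in 2 or 3 of the 6 leave-one-out fits. A region inside both Fam83g, a scaffold for casein kinase 1, and Slc5a10, a sugar transporter, rose by 1.54 ± 0.35, a fold change between those at Dbnl and Camkmt (adjusted p = 0.0276), on raw counts of 17 to 81 per library. One inside Zc3h3, a zinc finger gene, had 12.8, 12.7 and 12.5 CPM with Smndc1 shRNA and 4.34, 4.01 and 5.51 CPM with Atrx shRNA (1.45 ± 0.30, adjusted p = 0.0122). The Smndc1 shRNA libraries lie close together there and clear of the others. Inside H13, which encodes the signal peptide peptidase, levels were 23.5, 15.9 and 24.5 CPM and 4.34, 8.97 and 12.6 CPM (1.30 ± 0.25, adjusted p = 0.00777). The other regions lie 12.80 kb from Arhgap28, a GTPase activator (1.30 ± 0.31, adjusted p = 0.0474), and 10.03 kb from Fam71b (1.28 ± 0.29, adjusted p = 0.0319). Regions 1.12 kb from Th, the tyrosine hydroxylase gene, and 23.67 kb from Abr, a regulator of small GTPases, changed by 1.11 ± 0.25 and 1.10 ± 0.25 (adjusted p = 0.0258 and 0.0329). With trended offsets both passed in all 6 leave-one-out fits; they were named after their values were seen.

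Among the losses, the regions with the lowest fold changes after Dppa2 were read from 14 to 115 raw counts per library. A region 72.22 kb from Epha7, an Eph receptor, had 3.53, 5.09 and 2.37 CPM with Smndc1 shRNA and 10.6, 9.73 and 10.05 CPM with Atrx shRNA (-1.47 ± 0.34, adjusted p = 0.0383). Inside Efna5, which encodes an ephrin ligand of Eph receptors, levels were 6.18, 3.22 and 5.24 CPM and 15.9, 17.7 and 6.81 CPM (-1.45 ± 0.30, adjusted p = 0.012). Atrx shRNA replicate 3 comes close to the Smndc1 shRNA libraries at Efna5, while at Epha7 the gap is wide. A region 324.72 kb from Dcc, the netrin receptor gene, changed by -1.40 ± 0.30 (adjusted p = 0.0204). Inside Trdn, which encodes triadin of the calcium release complex in muscle, levels were 6.32, 6.44 and 4.57 CPM and 18.5, 16.03 and 11.3 CPM (-1.40 ± 0.27, adjusted p = 0.00777). Regions 7.78 kb from Hsfy2, a heat shock factor family gene, and 5.69 kb from Dio2, the deiodinase that activates thyroid hormone, changed by -1.60 ± 0.34 (adjusted p = 0.0139) and -1.36 ± 0.27 (adjusted p = 0.0108). Trdn and Dio2 passed in 4 of the 6 leave-one-out fits, Efna5 and Dcc in 3, Hsfy2 in 2 and Epha7 in 1.

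**Figure D2:**
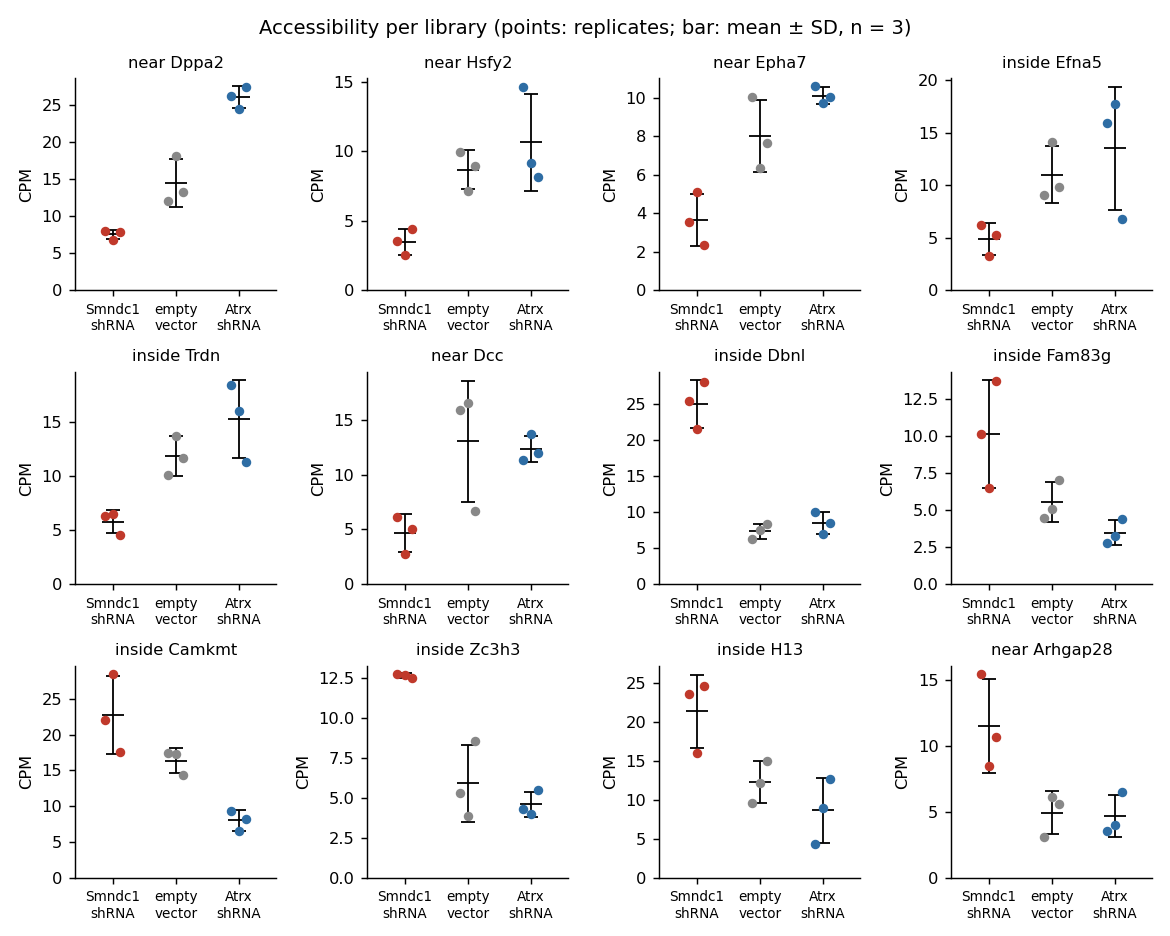
Accessibility in CPM (vertical axes, from 0) of 12 of the 16 regions named from the fit with TMM factors, 1 panel per region, with a point for each of the 3 libraries of Smndc1 shRNA, empty vector and Atrx shRNA and a bar for the mean ± SD. In each panel the points of the shRNA groups do not overlap, which the naming rule requires; the gap is wide near Dppa2 and inside Dbnl and Zc3h3, and narrow inside Efna5, where Atrx shRNA replicate 3 stands at 6.81 CPM.

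Few of the calls lay at gene starts. Promoters, taken as regions that overlap 1000 bp before to 500 bp after a RefSeq start of a coding gene, had 1 call among 10304 tested (0.0097%). Gene ends, the same window at either bound of a coding gene without a known start, had 1 among 2454 (0.0407%). Gene bodies had 31 among 32024 (0.0968%) and intergenic regions 33 among 33756 (0.0978%). With trended offsets the shares were 0.136%, 0.367%, 0.284% and 0.278%, so gene ends were no longer below the rest. At promoters 9 of these calls were higher with Smndc1 shRNA and 5 lower. In gene bodies 29 were higher and 62 lower, and in intergenic sequence 27 were higher and 67 lower. The difference in direction between places was not tested.

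The promoter that passed with TMM factors is at Lims1, which encodes PINCH-1, an adaptor of focal adhesions. At chr10:58370154-58371941 it had 26.6, 24.2 and 20.8 CPM with Smndc1 shRNA and 15.3, 10.9 and 9.72 CPM with Atrx shRNA. The groups did not overlap, but the adjusted p lies at the threshold (0.99 ± 0.24, adjusted p = 0.0494) and the call was lost in each of the 6 leave-one-out fits. The gene-end call is at Ccn3, the gene of a matricellular protein of the CCN family, at chr15:54753964-54754619. It had 6.03, 6.10 and 4.74 CPM with Smndc1 shRNA, 13.8, 12.6 and 12.3 CPM with Atrx shRNA and 15.97, 14.3 and 12.7 CPM with empty vector (-1.20 ± 0.28, adjusted p = 0.0443). The Atrx shRNA and empty vector libraries share one range there, and Smndc1 shRNA lies below both; the call was kept in 1 of the 6 leave-one-out fits.

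With trended offsets, levels corrected by the same curves separated further starts. Tns3, which encodes tensin 3 of focal adhesions, had 40.5, 39.2 and 44.2 CPM with Smndc1 shRNA and 19.1, 24.1 and 28.0 CPM with Atrx shRNA at its promoter (0.80 ± 0.16, adjusted p = 0.00543). Cuedc1 had 35.8, 26.9 and 35.2 CPM and 15.9, 15.5 and 24.6 CPM at its promoter (0.81 ± 0.18, adjusted p = 0.0224). The region shared by the divergent starts of Rps18, a ribosomal protein gene, and Vps52, a vesicle tethering gene, had 33.6, 31.4 and 26.9 CPM and 48.7, 46.5 and 44.4 CPM (-0.60 ± 0.14, adjusted p = 0.0315). Tns3 and Cuedc1 were thus more open and Rps18 less open with Smndc1 shRNA, with no overlap between groups. The call was kept in 3 of the 6 leave-one-out fits at Tns3 and at Cuedc1 and in none at Rps18. The named gene ends that rose were Fsbp (1.02 ± 0.19, adjusted p = 0.00275), Rspo3, which encodes a secreted enhancer of Wnt signalling (1.004 ± 0.22, adjusted p = 0.0209), and Tmem211 (0.84 ± 0.17, adjusted p = 0.00653). Regions at the promoters of Tgm5, a transglutaminase of skin (-0.85 ± 0.21, adjusted p = 0.0474), Fam50b (-0.84 ± 0.20, adjusted p = 0.0446) and Slc25a47, a mitochondrial carrier (-0.71 ± 0.16, adjusted p = 0.0278), and at a gene end of Baalc (-0.63 ± 0.14, adjusted p = 0.0267) fell.

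The 250 bases before these starts are shown because they are the stretches of promoter inside or next to the called regions (RefSeq, GRCm38.p6, read 5′ to 3′ on the gene's strand). Capitals mark matches on either strand to the CCAAT box (CCAAT), the GC box (GGGCGG), the cyclic AMP response element (TGACGTCA) and the TATA box (TATAAA), where overlapping matches run together. The Lims1 stretch is chr10:58371204-58371453 on the plus strand, Tns3 chr11:8664536-8664785 on the minus strand, Cuedc1 chr11:88098896-88099145 on the plus strand and Rps18 chr17:33955666-33955915 on the minus strand.
Lims1: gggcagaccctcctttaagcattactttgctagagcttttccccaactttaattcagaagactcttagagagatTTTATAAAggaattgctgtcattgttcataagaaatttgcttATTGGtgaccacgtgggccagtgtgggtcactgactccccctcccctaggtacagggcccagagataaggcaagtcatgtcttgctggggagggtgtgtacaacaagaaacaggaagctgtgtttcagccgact
Tns3: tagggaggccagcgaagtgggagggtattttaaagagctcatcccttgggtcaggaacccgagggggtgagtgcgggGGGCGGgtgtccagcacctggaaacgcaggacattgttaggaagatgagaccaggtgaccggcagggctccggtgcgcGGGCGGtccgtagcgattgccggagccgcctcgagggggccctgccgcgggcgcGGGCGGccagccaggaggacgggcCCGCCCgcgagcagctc
Cuedc1: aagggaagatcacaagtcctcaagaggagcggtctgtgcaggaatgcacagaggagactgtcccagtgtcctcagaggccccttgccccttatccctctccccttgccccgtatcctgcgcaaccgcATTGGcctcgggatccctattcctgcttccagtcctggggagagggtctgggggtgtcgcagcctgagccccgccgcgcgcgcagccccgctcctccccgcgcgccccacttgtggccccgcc
Rps18: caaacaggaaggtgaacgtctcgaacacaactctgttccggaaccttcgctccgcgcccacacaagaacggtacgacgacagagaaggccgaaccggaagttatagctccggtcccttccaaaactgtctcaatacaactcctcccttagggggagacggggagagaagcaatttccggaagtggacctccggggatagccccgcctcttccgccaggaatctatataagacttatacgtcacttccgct
Lims1 holds a CCAAT box and 2 overlapping TATA matches in a stretch with 2 CpG, Tns3 holds 4 GC boxes and 24 CpG, Cuedc1 holds 1 CCAAT box, and Rps18 holds none of the 4 motifs. Of the 14 such stretches of 12 genes with a promoter region called under trended offsets, 4 hold a CCAAT box and 4 a GC box, and 1 each a cyclic AMP response element and a TATA box. Over all 21263 starts of coding genes the shares are 35.4%, 42.6%, 1.92% and 11.6%. The median GC content was 55.0% at the called promoters and 55.6% at all starts, and the median number of CpG was 16 and 10. These differences were not tested. The stretches of Rps18 and Vps52 lie at the same called region and overlap, so they do not count separately.

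Away from starts, the naming rule in the trended fit took regions with low counts and high fold changes, of which Marchf11 had also passed with TMM factors. Inside Pld1, the phospholipase D1 gene, levels were 5.10, 5.33 and 4.16 CPM with Smndc1 shRNA and 0.857, 0.736 and 1.44 CPM with Atrx shRNA (2.15 ± 0.51, adjusted p = 0.0377), on 4 to 39 raw counts per library. Inside Lgr4, which encodes a receptor for R-spondins, they were 1.13, 2.50 and 0.838 CPM and 8.24, 6.66 and 4.44 CPM (-2.15 ± 0.47, adjusted p = 0.0189). Both sets separate the groups fully, yet the calls were kept in 1 and 2 of the 6 leave-one-out fits. The others that rose were near Flrt2, an adhesion protein gene (1.88 ± 0.46), near Gxylt1, a xylosyltransferase (1.35 ± 0.33), and inside Clcn6, an endosomal chloride transporter (1.32 ± 0.32), and Marchf11, a ubiquitin ligase (1.29 ± 0.26). The others that fell were near 4931408C20Rik (-3.0 ± 0.68, on 2 to 30 raw counts per library), near Dcn, which encodes the matrix proteoglycan decorin (-2.79 ± 0.68, on 1 to 28 raw counts), near Usp24, a deubiquitinase (-1.54 ± 0.38), and inside Lama2, a laminin chain gene (-1.37 ± 0.34), with adjusted p from 0.0082 to 0.0481 over these 8.

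With trended offsets 10 regions passed in all 6 leave-one-out fits, and they were singled out after their values were seen. Of these, 5 were lower with Smndc1 shRNA, among them Dppa2, Zfp518b, Nuf2 and Bms1, and 5 were higher, at Abr, Th, Sema4b, Camkmt and Dbnl. The Zfp518b region, nearest to a zinc finger gene at chr5:38636132-38636710, had 23.0, 22.2 and 28.9 CPM with Smndc1 shRNA, 46.5, 49.8 and 55.1 CPM with Atrx shRNA and 53.7, 50.01 and 50.4 CPM with empty vector (-1.04 ± 0.15, adjusted p = 2.51e-05). The region nearest to Bms1, a ribosome assembly gene, had 21.1, 19.5 and 22.8 CPM and 40.7, 42.0 and 40.7 CPM (-0.97 ± 0.15, adjusted p = 0.000314). In both regions the libraries of a group lay within a narrow range and far from the other group. Inside Sema4b, a semaphorin gene, levels were 26.4, 20.6 and 30.3 CPM and 9.81, 12.3 and 10.3 CPM (1.26 ± 0.21, adjusted p = 0.000836).

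Empty vector libraries took no part in these fits and give a level for reference. At the 66 regions called with TMM factors, the empty vector mean lay between the means of the shRNA groups in 54, beyond Atrx shRNA in 12 and beyond Smndc1 shRNA in none. The empty vector mean was nearer to Atrx shRNA in 56 and to Smndc1 shRNA in 10. Of the 47 regions lower with Smndc1 shRNA, 43 had empty vector nearer to Atrx shRNA, as had 13 of the 19 higher ones. With trended offsets it was nearer to Atrx shRNA in 154 of 208 regions. The same share over all tested regions was not computed, so these counts have no background to be read against. Zc3h10, whose region also lies near the ribosomal protein gene Rpl41, is among the 12 regions with empty vector beyond Atrx shRNA: 8.53, 10.3 and 9.64 CPM with Smndc1 shRNA, 22.7, 18.5 and 20.4 CPM with Atrx shRNA and 25.4, 22.3 and 24.8 CPM with empty vector (-1.12 ± 0.24, adjusted p = 0.0212). Empty vector nearer to Smndc1 shRNA, with Atrx shRNA apart from the other groups, appears at Camkmt and, with trended offsets, at the Gcg region described next. In the fit of all 9 libraries with TMM factors, 125 regions passed for Smndc1 shRNA against empty vector (0.156%), 16 higher (0.0199%) and 109 lower (0.136%). For Atrx shRNA against empty vector 0 passed (0%) with edgeR. An unadjusted p under 0.05 was found at 4618 of 80345 regions there, and at 6500 for Smndc1 shRNA against empty vector. With trended offsets 910 (1.13%) passed for Smndc1 shRNA, 334 higher (0.416%) and 576 lower (0.717%), and 216 (0.269%) for Atrx shRNA, 157 higher (0.195%) and 59 lower (0.0734%). These comparisons share the empty vector libraries.

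**Figure D3:**
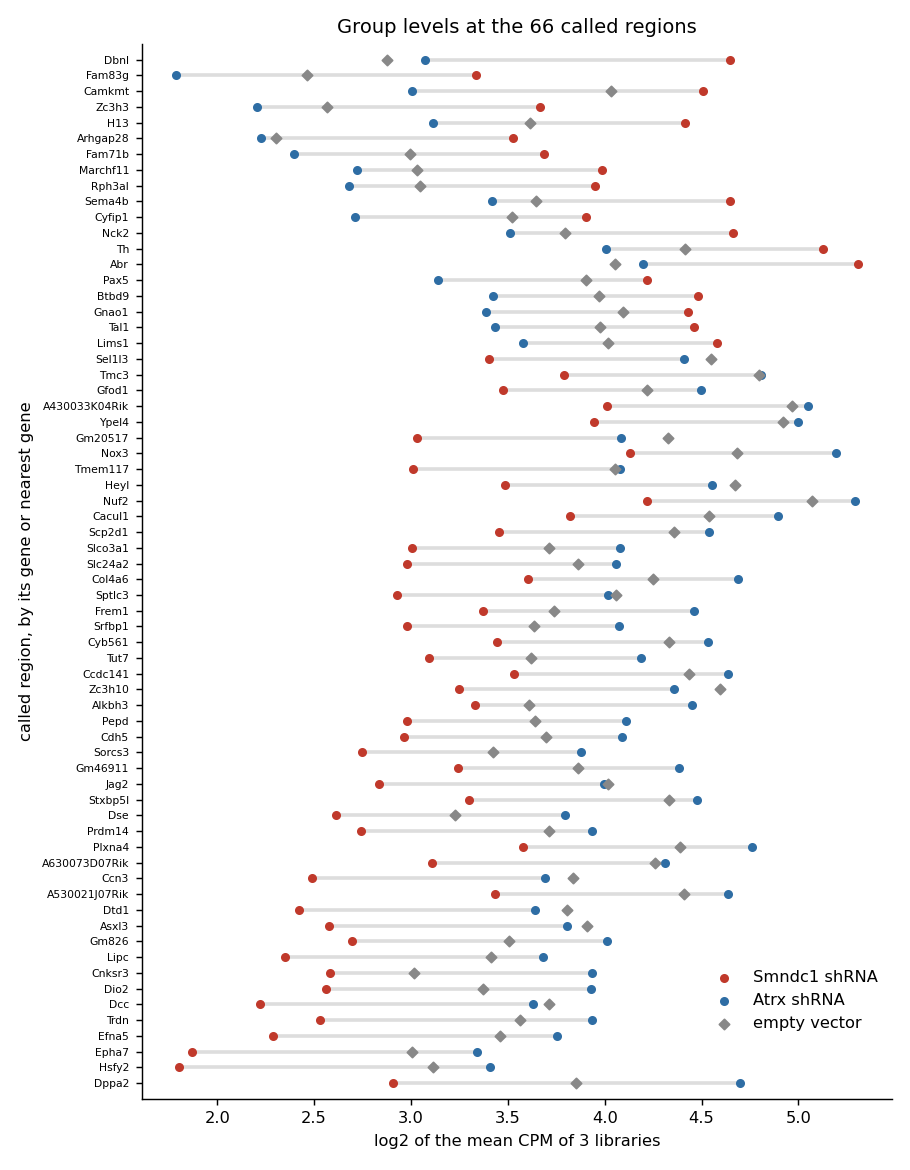
Group means (log2 of the mean CPM of 3 libraries, horizontal axis) of Smndc1 shRNA, Atrx shRNA and empty vector at each of the 66 called regions, 1 row per region named by its gene or nearest gene and ordered by fold change, with a grey line joining the shRNA groups. The empty vector mark lies on the grey line in 54 rows and past the Atrx shRNA mark in 12, and it is nearer to Atrx shRNA in 56. The rows were called for a gap between the shRNA groups, which favours a mark on the line. How often empty vector is nearer to Atrx shRNA over all tested regions was not computed.

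At glucagon, the hormone that defines the alpha cell, the start of the gene and a region past its far end gave different values. The promoter region, chr2:62483347-62483947, had 32.6, 33.9 and 28.3 CPM with Smndc1 shRNA, 28.8, 30.7 and 25.1 CPM with Atrx shRNA and 40.7, 40.1 and 22.6 CPM with empty vector. The groups overlap there and the log2 fold change was 0.16 ± 0.25 (adjusted p = 0.9997). The 250 bases before the Gcg start, chr2:62483654-62483903 on the minus strand, lie in this region and are shown with TATA matches in capitals.
Gcg: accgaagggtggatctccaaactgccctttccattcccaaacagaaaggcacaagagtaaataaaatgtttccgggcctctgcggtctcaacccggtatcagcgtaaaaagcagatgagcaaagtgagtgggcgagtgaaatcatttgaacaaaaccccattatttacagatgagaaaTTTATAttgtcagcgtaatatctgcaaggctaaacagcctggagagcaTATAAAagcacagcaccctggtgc
The stretch holds 2 TATA matches, 1 on each strand, and none of the other 3 motifs. The region past the far end, chr2:62473246-62474358, begins 172 bp beyond the 3′ bound of the gene. It had 34.8, 48.5 and 34.0 CPM with Smndc1 shRNA, 17.8, 20.2 and 20.6 CPM with Atrx shRNA and 46.3, 35.3 and 23.9 CPM with empty vector. All Smndc1 shRNA libraries and all empty vector libraries lay above all Atrx shRNA libraries. The log2 fold change between the shRNAs was 0.997 ± 0.25, which did not pass with TMM factors (adjusted p = 0.0901) and passed with trended offsets (0.999 ± 0.17, adjusted p = 0.000687). It passed in 5 of the 6 leave-one-out fits with trended offsets and not without Atrx shRNA replicate 1 (adjusted p = 0.0712). It did not pass with limma voom (adjusted p = 0.106) or DESeq2 (adjusted p = 0.369). Against empty vector with trended offsets, the log2 fold change was 0.22 with Smndc1 shRNA (adjusted p = 0.571) and -0.78 with Atrx shRNA (adjusted p = 0.00359). With TMM factors neither passed against empty vector: 0.15 with Smndc1 shRNA (adjusted p = 0.933) and -0.85 with Atrx shRNA (adjusted p = 0.470). All 7 regions of the gene had a positive fold change, and 1 of 7 passed with trended offsets. In that fit 51.1% of all tested regions had a positive fold change. Apart from the region past the far end, the log2 fold changes with TMM factors were 0.04 to 0.28 (unadjusted p of at least 0.25). Regions of one gene need not be independent, so their shared sign does not show a gain across the gene.

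The calls at genes of hormone identity did not set these genes apart from all tested regions. Of 18 genes examined for the hormones, their regulators and the targeted genes, 17 had a tested region and 103 regions lay in or within 10 kb of them. In edgeR with TMM factors 0 of the 103 passed (0.084% of all tested regions passed). An unadjusted p under 0.05 was found at 8 of the 103, against 5.45% of all tested regions, and DESeq2 and limma voom also called 0. With trended offsets the Gcg region alone passed, where 0.265% of all tested regions passed. In that fit 11 of the 103 had an unadjusted p under 0.05, against 8.97% of all tested regions. Ins1 had no region. At the promoter of Smndc1 levels were 39.3, 55.6 and 38.7 CPM with Smndc1 shRNA and 57.3, 59.9 and 32.1 CPM with Atrx shRNA, and the groups overlap (-0.16 ± 0.27). At the promoter of Atrx they were 22.8, 24.7 and 16.2 CPM and 26.7, 20.4 and 13.6 CPM, which also overlap (0.07 ± 0.24). Among regulators of islet fate, the region with the lowest p at Nkx2-2 had a log2 fold change of -0.63 ± 0.24 (unadjusted p = 0.0106, adjusted p = 0.624) and that at Foxa2 -0.54 ± 0.24 (unadjusted p = 0.0226, adjusted p = 0.778). At Pcsk2, the convertase that cuts proglucagon to glucagon, the region with the lowest p of 33 had 0.75 ± 0.33 (unadjusted p = 0.0252, adjusted p = 0.805). That region lies in the gene body, while the Pcsk2 promoter region had -0.06 ± 0.28. The regions with the lowest p at Irx2, Neurod1 and Mafa had 0.47 ± 0.24, -0.44 ± 0.27 and 0.17 ± 0.26, with adjusted p of at least 0.916. The Irx2 region is intergenic, and the promoter region of Irx2 went the other way (-0.27 ± 0.28).

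**Figure D4:**
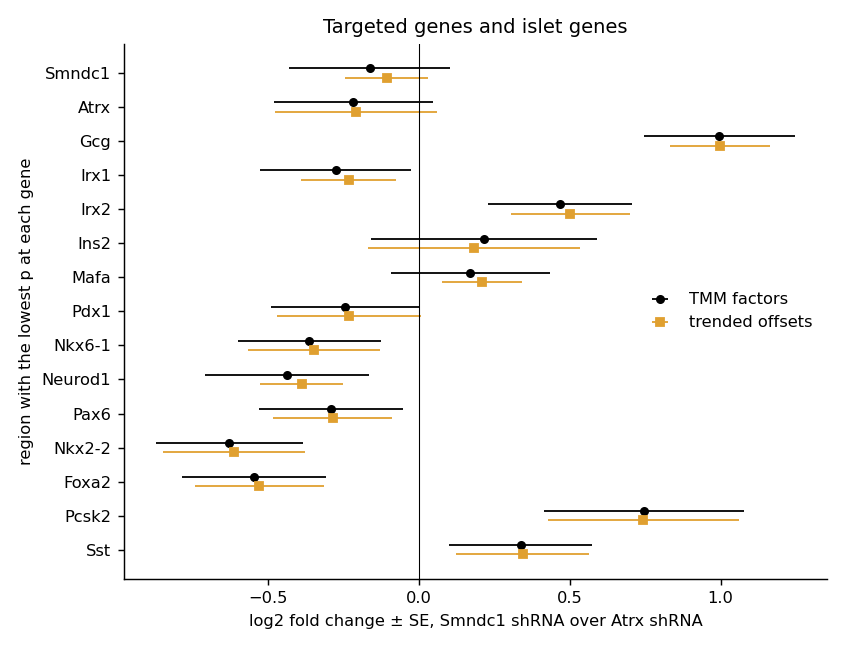
Log2 fold change of Smndc1 shRNA over Atrx shRNA with its SE for the region of lowest p at each of 15 of these genes, from the fit with TMM factors and the fit with trended offsets. The Gcg region at 0.997 is the only one whose difference passed, with trended offsets, and with TMM factors the plotted regions of the regulators lie between -0.63 and 0.47.

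Across 29 gene lists, each with the regions in its genes or within 10 kb, calls were few. With TMM factors the only list with a call was ribosomal proteins, 1 lower of 299 tested, the region by Rpl41. The median log2 fold change was 0.06 over 92 regions of alpha cell identity genes, -0.02 over 45 of beta cell identity, -0.02 over 153 of hormone processing and granules, 0.02 over 128 of Smndc1 and its U2 spliceosome partners and -0.07 over 116 of Atrx and its heterochromatin partners, against 0.00 over all tested regions. Medians of the other lists ran from -0.12 for clustered histones to 0.20 for endothelial markers, and neither list had a call. With trended offsets 12 regions of lists passed, most of them named here. Of all tested regions 0.265% passed in that fit and 0.084% with TMM factors, so 1 call does not set a list of this size apart. In hormone processing 1 of 153 fell, at the end of Vgf, a granule neuropeptide precursor, where levels were 40.8, 43.3 and 37.0 CPM with Smndc1 shRNA and 59.5, 57.3 and 58.2 CPM with Atrx shRNA (-0.53 ± 0.13, adjusted p = 0.0467). Spliceosome partners had 1 of 128, inside U2af2, the large subunit of the U2 auxiliary factor that reads the polypyrimidine tract, with 52.7, 56.9 and 44.4 CPM and 76.6, 72.9 and 77.3 CPM (-0.55 ± 0.12, adjusted p = 0.0177). This region also lies within 10 kb of Zfp580. Chromatin regulators had 1 of 237, 4.70 kb from Ezh1, a Polycomb methyltransferase, with 60.4, 72.8 and 72.0 CPM and 39.6, 41.3 and 48.0 CPM (0.67 ± 0.13, adjusted p = 0.00486). In each of these the groups did not overlap; Ezh1 was kept in 4 of the 6 leave-one-out fits, U2af2 in 1 and Vgf in none. Neuronal adhesion genes had 1 higher, inside Nrxn3, a presynaptic neurexin (0.82 ± 0.15, adjusted p = 0.00387), and 1 lower, inside Dscam, an adhesion receptor of the immunoglobulin family (-0.90 ± 0.20, adjusted p = 0.0249). Others, beside the Gcg and Rpl41 regions already given, were Rbfox3, Zfp407 and Rps18 on the lower side and a region between the keratins Krt82 and Krt84 on the higher side. The lists for Atrx partners, p53 targets, imprinted genes, interferon response and Hox clusters had no call in either fit, and with 25 to 117 tested regions each that does not set them apart from all tested regions.

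**Figure D5:**
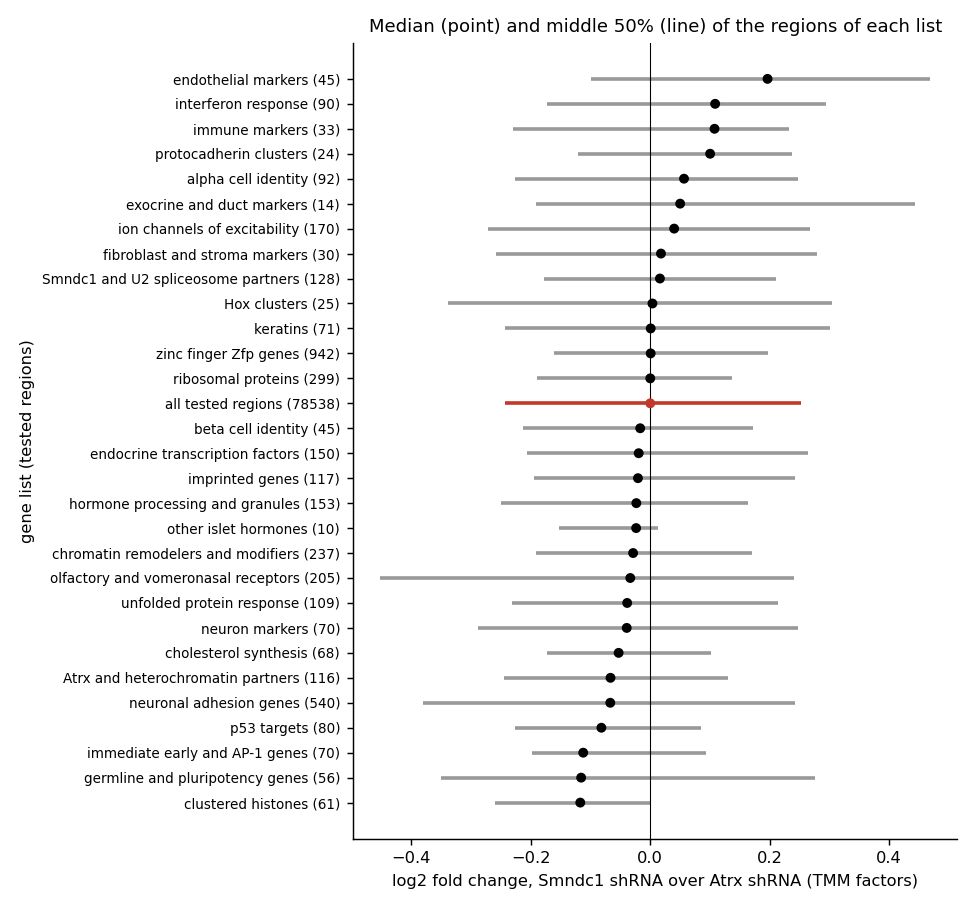
Median log2 fold change of Smndc1 shRNA over Atrx shRNA over the tested regions of each of the 29 gene lists, as a point, with the middle 50% of its regions as a line and the number of tested regions in brackets. The medians run from -0.12 for clustered histones to 0.20 for endothelial markers, and the ranges of the lists overlap that of all tested regions.

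The called regions were wider and stronger than the rest; that regions with more counts are easier to call was not separated from this. Their median width was 700 bp where higher and 701 bp where lower, against 501 bp over all tested regions. Median levels with empty vector were 12.5 CPM and 14.5 CPM, against 5.44 CPM. Of the 47 lower regions 10 (21.3%) lay over 100 kb from any coding gene, as did 0 of the 19 higher ones and 11.9% of all tested regions. The median distance to a gene among the intergenic calls was 48.5 kb for lower and 8.80 kb for higher regions. Calls were spread over the genome, with the lower ones on 18 chromosomes and the higher ones on 9. Only 4 pairs of neighbouring calls lay within 1 Mb, each pair of one direction: Trdn with Dse, Rph3al with Abr, Dtd1 with Scp2d1, and A530021J07Rik with Tmc3.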

How the data were processed

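ATAC-seq of 9 alphaTC1 libraries was read as 75 bp paired ends, per the labels' protocols. The authors deposited a table of raw counts for 80827 consensus regions, with no scaling, and a file of region positions on mm10 (GRCm38). The submitters' processing notes name MACS2 2.2.7.1 and Bowtie2 2.4.4, beside bedtools 2.27.1, SAMtools 2.8.0 and deepTools 3.5.1. Not given in the sources used here are what each did, how regions were merged and what was counted (reads, fragments or insertions).

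Groups came from the treatment labels. The test was edgeR 4.0.16's quasi-likelihood F test (R 4.3.3; TMM factors; filterByExpr with a minimum count of 10; robust dispersion) on the 6 libraries, adjusted by Benjamini-Hochberg over 78538 regions (2289 fell below the filter). Trended offsets are a loess curve (span 0.3) of each library against mean log2 count. Alternatives were DESeq2 1.42.0, limma voom (3.58.1), other factors, filters and thresholds, all 9 libraries and each library left out. Levels are CPM with TMM factors over 9 libraries, or corrected by the offsets where said so. Standard errors are the fold change over the root of F. The edgeR fits with TMM factors and with trended offsets, DESeq2 and limma voom were run on simulated data, and the other alternatives were not. The simulated libraries differed in depth and not in contrast, so they cannot show how well the offsets even out contrast. Figures used matplotlib 3.10.9, and tables pandas 2.3.3 and scipy 1.17.1 under Python 3.11.15.

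Starts came from RefSeq for 17492 of 21900 coding genes (GRCm38.p6); other genes have bounds only. Named regions had an adjusted p under 0.05, a mean log2 CPM of at least 1 and groups that do not overlap: the 8 highest and 8 lowest by fold change at promoters or gene ends and the 7 highest and 7 lowest elsewhere, then 5 and 5 a direction from the trended fit, the key genes and up to 4 calls per list. Members and lists were chosen with earlier results of these data known. Values of some genes of these lists are not reported here.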

Additional observations from a re-analysis of the deposited data

How the results depend on the processing

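The 66 called regions were chosen in the same libraries that the other fits use, which largely fixes their direction there. All 66 called regions kept their direction with other size factors, trended offsets, DESeq2, limma voom, no filter, all 9 libraries and without replicate 3 of both groups, as did the 63 that were tested with a mean count of at least 50. Their number moved, to 208 with trended offsets, 476 with all 9 libraries and trended offsets (chosen after seeing the data), 2 with DESeq2, 20 with limma voom, 171 without replicate 3 of both groups and 6 at an adjusted p under 0.01. With a replicate block it was 319, and 888 with trended offsets and the replicate block. The replicate numbers were not used as pairs. Deviations from the group mean log2 CPM correlated at -0.036, 0.038 and 0.327 between same-numbered libraries. Differently numbered libraries reached 0.308 (Smndc1 shRNA replicate 2 with Atrx shRNA replicate 1) and -0.346 (Smndc1 shRNA replicate 2 with Atrx shRNA replicate 3). Leaving out 1 library gave 1 to 144. With trended offsets it gave 25, 13 and 178 without Atrx shRNA replicates 1, 2 and 3 and 22, 195 and 274 without Smndc1 shRNA replicates 1, 2 and 3. The share higher was 50% with DESeq2, 66.7% at 0.01, 0% to 50% with 1 library out and 29.2% to 53.8% with trended offsets as well (53.8% without Atrx shRNA replicate 2 and 45.5% without Smndc1 shRNA replicate 1). Calls at promoters and gene ends, 2 as reported, were 23 with trended offsets, 13 with the replicate block, 114 with both, 53 with 9 libraries and trended offsets, 1 with 9 libraries, RLE factors or no filter, 4 with total counts, 0 with DESeq2, voom or 0.01, 5 with a mean count of at least 50, and 0 to 1 (trended offsets 0 to 26, with 11 without Atrx shRNA replicate 3) with 1 library out. Calls at list genes, 1 as reported, were 12 with trended offsets, 18 with the replicate block, 40 with both, 25 with 9 libraries and trended offsets, 4 with total counts, 0 with DESeq2, voom or 0.01, 8 with a mean count of at least 50, 10 without replicate 3 of both, 0 in gene bodies alone, 3 within 50 kb, and 0 to 7 (trended offsets 2 to 14) with 1 library out. Uncalled log2 fold changes that turned sign with 1 library out were Smndc1 (-0.41 to -0.017; trended offsets -0.23 to 0.044, positive without Atrx shRNA replicate 2), the Atrx gene body (-0.47 to 0.16; trended offsets -0.43 to 0.18, positive without Atrx shRNA replicate 1) and Ins2 (-0.14 to 0.44; trended offsets -0.077 to 0.40, negative without Smndc1 shRNA replicate 3; also -0.0402 without replicate 3 of both). The cause of these changes was not tested. Depth limits the precision of weak regions: each named region with under 20 counts in some library had a standard error of at least 0.29.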
